A study of Mus musculus with 14 samples.

Results

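The genes described here encode the machinery that carries proteins between the endoplasmic reticulum (ER) and the Golgi apparatus: the COPII and COPI coats with their small GTPases, the cargo receptors, the SNARE fusion proteins, the tethers and the KDEL retrieval receptors. The list held 46 genes, and all 46 were found by platform gene symbol, on 100 of the 45101 probe sets of the array. Each gene was represented by its brightest probe set, that is, the one with the highest mean log2 intensity over the 14 arrays. Of the 46 genes, 45 passed the filter on dim probe sets, among 12085 genes tested. Tmed2, a p24 family cargo receptor, did not pass. Its normalized intensity was 3.88 to 29.3 over the 14 arrays, under the filter threshold of 41.5, so no response is given for it. Another 44 members lay above that threshold on every array. The remaining one, Kdelr3, lay above it on the 4 WT tunicamycin arrays only, and so passed through the group in which it was high.

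Secretory proteins leave the ER in vesicles coated with COPII. The GTPase Sar1, loaded by the exchange factor Sec12 (Preb), recruits the inner coat of Sec23 and Sec24 and then the outer cage of Sec13 and Sec31 at exit sites organised by Sec16 and Tfg. COPI vesicles, built on the GTPase Arf1, return escaped ER proteins and receptors from the Golgi, and KDEL receptors retrieve the soluble chaperones among them. The hepatocyte secretes most plasma proteins and so runs a heavy load of this traffic.

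The samples were livers of lsPERK mice, which the series design calls knock-out, and of wild-type (WT) mice, 1 oligonucleotide array per liver sample. The 4 groups were lsPERK with 1 mg/kg tunicamycin for 6 h (4 arrays), lsPERK with 0.3% DMSO (3 arrays), WT with 1 mg/kg tunicamycin for 6 h (4 arrays) and WT with 0.3% DMSO (3 arrays). Tunicamycin inhibits N-glycosylation of new proteins in the ER and thereby brings on ER stress, and PERK (Eif2ak3) is the ER kinase that phosphorylates eIF2 under that stress. The labels name no allele, promoter or Cre behind lsPERK, and no strain, age or sex, nor a time for the DMSO samples. Nor do they say whether each replicate was its own animal, and the p-values then cover no more than the spread among these samples, which may be technical in part.

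Before scaling, the arrays had median intensities between 34.4 and 53.4, a range of 0.63 on the log2 scale, and the log2 values were quantile normalized. Intensities below are on that normalized scale. The brighter kept probe set of the targeted gene Eif2ak3 read 239 to 316 in lsPERK tunicamycin livers and 127 to 157 in lsPERK DMSO livers, against 1725 to 2420 in WT tunicamycin livers and 240.1 to 443 in WT DMSO livers. Of the 6 ER stress genes examined, Hspa5, the main ER chaperone, rose by log2 1.02 in lsPERK and 1.26 in WT liver, and Atf6, an ER stress sensor, by 1.01 and 1.21. Ddit3 (CHOP), a transcription factor downstream of PERK, rose by 2.45 and 6.12, in lsPERK and WT liver in that order. Atf4, translated when eIF2 is phosphorylated, stood at 0.07 in lsPERK (adjusted p = 0.851) and rose by 1.86 in WT liver, and Xbp1, the substrate of the IRE1 branch, stood at −0.03 (adjusted p = 0.882) and rose by 0.63. Arrays of female and of male type were mixed in every group, with high Xist signal on 2 of 4 lsPERK tunicamycin, 2 of 3 lsPERK DMSO, 1 of 4 WT tunicamycin and 1 of 3 WT DMSO arrays. As a gauge of RNA quality, the 3′ β-actin control was set over the 5′ one, and the log2 of this ratio averaged 0.68 ± 0.10 (SD, n = 4) in lsPERK tunicamycin, 0.87 ± 0.25 (n = 3) in lsPERK DMSO, 0.84 ± 0.25 (n = 4) in WT tunicamycin and 1.09 ± 0.15 (n = 3) in WT DMSO arrays. All 7 hepatocyte markers with a named probe set (Alb, Ttr, Apoa1, Apob, Fgb, Cps1 and Ass1) passed the filter, and their summed intensity was 110918 to 117735 in lsPERK and 111376 to 115753 in WT livers. Single markers were less even than the sum. Their log2 tunicamycin responses ran from −1.25 to 0.01 in lsPERK and from −0.19 to 0.20 in WT liver. In each genotype 1 of the 7 was called lower, as was 1 in the difference of the responses, whose lowest value was −1.46 (limma, adjusted p under 0.05). The 8 macrophage markers summed to 6939 to 10643 in lsPERK tunicamycin and 6768 to 19117 in lsPERK DMSO livers, and to 4369 to 12961 in WT tunicamycin and 7522 to 20362 in WT DMSO livers. The summed levels of the 8 stellate markers were 12808 to 15825 in lsPERK tunicamycin and 13036 to 14777 in lsPERK DMSO livers, and 9940.2 to 13769.8 in WT tunicamycin and 12129 to 16977 in WT DMSO livers. The 8 endothelial markers summed to 4206 to 5749 and 5561 to 7006 in lsPERK, and to 3906 to 6095 and 4391 to 6689.7 in WT livers, each with tunicamycin and then DMSO. Of 5 cholangiocyte markers 3 passed the filter, and of 7 neutrophil and lymphocyte markers 6 did. The cholangiocyte markers summed to 186 to 299 in lsPERK tunicamycin and 122 to 155 in lsPERK DMSO livers, which did not overlap, and to 166 to 230.3 in WT tunicamycin and 148 to 235 in WT DMSO livers. The neutrophil and lymphocyte markers summed to 192 to 221 in lsPERK tunicamycin and 250.5 to 703 in lsPERK DMSO livers, again without overlap, and to 135 to 557 in WT tunicamycin and 222 to 492 in WT DMSO livers. No marker sum was at 0 in any group, and the part of these cells in the results below was not tested. Fewer cells of a type and less RNA per cell cannot be told apart in whole liver.

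Most of the traffic genes rose after tunicamycin in both genotypes. In lsPERK liver 32 of 45 members rose and 0 fell, and in WT liver 37 of 45 rose and 3 fell (limma, adjusted p under 0.05 over all genes tested). Over all 12085 genes, 8.42% were called higher and 7.27% lower in lsPERK liver, and 20.7% higher and 26% lower in WT liver, or 15.7% and 46.7% in either direction. The median log2 change of the members was 0.57 in lsPERK and 0.75 in WT liver, beside −0.02 and −0.13 over all genes. The WT median over all genes depended on the scaling, at 0.30 in the values as deposited and 0.01 with median centring, and the share of higher among all WT calls was 44.2% after quantile normalization and 83.7% as deposited. As deposited, 21 members rose and 0 fell in lsPERK liver and 39 rose and 0 fell in WT liver, so that none of the 3 WT falls (Sar1b, Sec16b and Tmed10) was called there, and Sec16b and Tmed10 turned in direction. The same 30 genes were called higher in both responses, and 7 (Sec23a, Sec24b, Sec31a, Sar1a, Tmed5, Arf1 and Kdelr3) were called higher in WT liver only. Over all genes, the share higher in both can be at most the 8.42% called higher in lsPERK liver. The share called higher in WT liver only was not counted over all genes, so the 7 are not read as a trait of the members. Kdelr3 passed the filter through its WT tunicamycin arrays, so its call is no result of a test. A call in one genotype alone does not show a difference between them. The difference of the responses, lsPERK minus WT, was therefore tested on its own, and it passed for 9 members. It was lower in lsPERK for Sec23a, Sec24b, Tfg, Mcfd2, Copb1, Arf4 and Stx5a, and higher for Sar1b and Tmed10. Over all genes this test called 9.67% lower and 10.2% higher (19.9% in all), beside 20% of the members in either direction. The share of members called lower, 15.6%, and the share called higher, 4.44%, lay to either side of the background. Without Kdelr3 the counts were 32 and 0 of 44 in lsPERK liver, 36 and 3 in WT liver, and 7 lower and 2 higher in the difference.

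**Figure D1:**
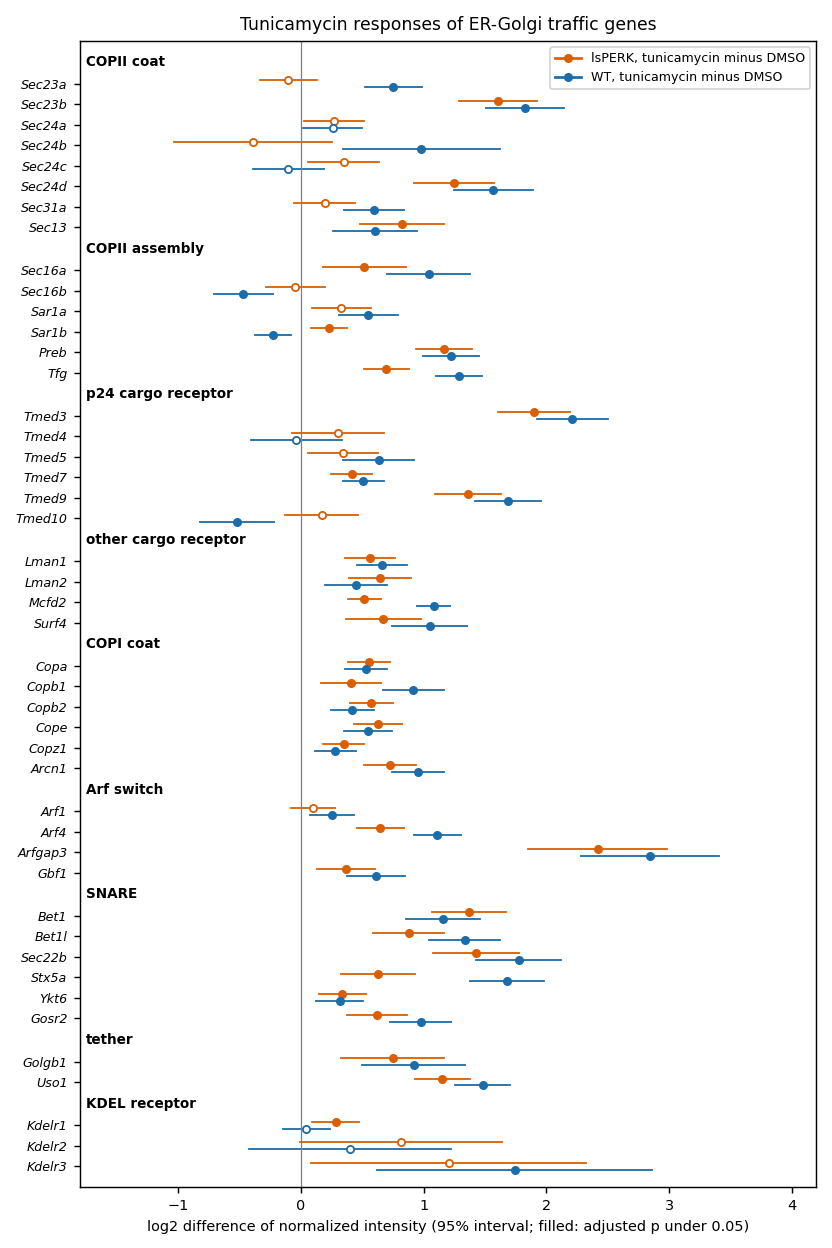
Tunicamycin response of the 45 tested ER-Golgi traffic genes, grouped by role, as the log2 difference of normalized intensity between tunicamycin and DMSO livers with its 95% interval (lsPERK orange, above WT blue, filled where the adjusted p was under 0.05). Most points lie right of 0 in both genotypes, with Arfgap3 farthest right at 2.42 in lsPERK and 2.84 in WT liver, while the orange point of Sec23a lies at −0.10.

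The start regions of the members were read for elements known from ER stress genes, because the members moved together. RefSeq windows of 300 bases (GRCm38.p6, from 250 bases before to 50 bases after the annotated start) were at hand for 40 of the 46 members, in 46 windows. The core of the unfolded protein response element, TGACGTGG or its complement CCACGTCA, occurred in 9 of the 40 members (22.5%), against 1.02% of 9775 tested genes with a window. These were Sec23a, Sec24d, Sec16b, Copb1, Copb2, Arf1, Gbf1, Stx5a and Kdelr3. The core contains CCACG, which alone occurred in 30 of the 40 members (75%) and in 51.1% of the tested genes. All motifs were read on both strands. The full ER stress element (ERSE) and its shorter variant ERSE-II, which also hold CCACG, occurred in 0 of the 40 members and in 0.164% and 0.0818% of the tested genes. The C/EBP-ATF element TGATGNAA occurred in 1 member, beside 2.82% of the tested genes. Of the 9 members with the core, 5 rose and 0 fell in lsPERK liver, and 8 rose and 1 (Sec16b) fell in WT liver. Those 8 include Kdelr3, which passed the filter through its WT tunicamycin arrays, so its rise is no result of a test. Of the 31 without the core, 23 rose and 0 fell in lsPERK liver, and 25 rose and 2 fell in WT liver. Windows of 5 members with the core are shown with the Sec23 paralogue that lacks it, 5′ to 3′ on the gene's strand, with the core in capitals.
Sec23a, chr12:59011968-59012267, minus strand: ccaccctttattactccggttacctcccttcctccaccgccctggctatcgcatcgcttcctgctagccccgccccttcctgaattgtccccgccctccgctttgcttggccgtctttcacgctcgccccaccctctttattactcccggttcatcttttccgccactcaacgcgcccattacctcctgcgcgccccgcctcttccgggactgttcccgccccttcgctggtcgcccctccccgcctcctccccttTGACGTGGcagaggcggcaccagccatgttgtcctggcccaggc
Sec23b, chr2:144555979-144556278, plus strand: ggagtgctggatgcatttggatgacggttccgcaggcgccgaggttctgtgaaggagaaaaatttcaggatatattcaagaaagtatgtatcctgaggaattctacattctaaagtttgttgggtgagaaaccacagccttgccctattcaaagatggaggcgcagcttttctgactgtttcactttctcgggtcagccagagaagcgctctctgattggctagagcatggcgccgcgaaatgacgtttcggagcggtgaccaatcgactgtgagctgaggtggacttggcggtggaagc
Sec24d, chr3:123267246-123267545, plus strand: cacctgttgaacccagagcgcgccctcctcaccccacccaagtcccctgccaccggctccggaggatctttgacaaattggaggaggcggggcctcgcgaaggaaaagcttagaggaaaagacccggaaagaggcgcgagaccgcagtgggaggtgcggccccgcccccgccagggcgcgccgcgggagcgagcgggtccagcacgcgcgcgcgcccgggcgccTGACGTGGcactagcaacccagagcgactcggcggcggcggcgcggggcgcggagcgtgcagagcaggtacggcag
Copb1, chr7:114254631-114254930, minus strand: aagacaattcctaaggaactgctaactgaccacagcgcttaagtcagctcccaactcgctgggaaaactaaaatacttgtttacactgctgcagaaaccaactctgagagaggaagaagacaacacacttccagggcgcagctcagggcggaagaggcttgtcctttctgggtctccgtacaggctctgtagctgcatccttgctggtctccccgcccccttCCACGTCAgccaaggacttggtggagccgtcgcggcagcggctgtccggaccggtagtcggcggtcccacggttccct
Copb2, chr9:98563481-98563780, plus strand: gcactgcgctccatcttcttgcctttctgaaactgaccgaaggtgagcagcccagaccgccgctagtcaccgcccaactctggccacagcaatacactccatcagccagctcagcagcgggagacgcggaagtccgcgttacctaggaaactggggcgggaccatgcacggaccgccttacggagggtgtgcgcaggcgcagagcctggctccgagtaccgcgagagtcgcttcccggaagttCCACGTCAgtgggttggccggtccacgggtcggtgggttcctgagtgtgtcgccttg
Stx5a, chr19:8741174-8741473, plus strand: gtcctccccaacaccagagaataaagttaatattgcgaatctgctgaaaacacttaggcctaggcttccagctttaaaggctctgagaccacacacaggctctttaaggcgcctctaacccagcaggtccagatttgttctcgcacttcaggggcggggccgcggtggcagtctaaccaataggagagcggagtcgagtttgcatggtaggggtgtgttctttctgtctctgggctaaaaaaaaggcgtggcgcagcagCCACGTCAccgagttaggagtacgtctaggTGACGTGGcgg
The core began 26 bases upstream of the start in Sec24d and 28 bases upstream in Copb1, and 7 bases upstream, running across the start, in Copb2. In Sec23a it lay within the transcript, from base 7 to base 14. Stx5a held it on both strands, from base 10 to base 17 and from base 40 to base 47 of the transcript. A match of letters is not evidence that a factor binds there.

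In the inner COPII coat the difference of the responses was called for Sec23a and not for Sec23b, and these paralogues were not tested against each other. Sec23a and Sec23b encode the alternative GTPase-activating subunits of the inner coat, which act on Sar1. Sec23a read 3443, 3212, 3672 and 3375 in lsPERK tunicamycin livers and 3747, 3235 and 4090 in lsPERK DMSO livers, against 6674, 7698, 6213 and 5482 in WT tunicamycin livers and 3702, 3848 and 3984 in WT DMSO livers. Every WT tunicamycin array lay above all the others, and the lsPERK groups overlapped. Sec23a rose in WT liver by log2 0.75 (SE 0.11, limma adjusted p = 6.83e-05) and stood at −0.10 in lsPERK liver (adjusted p = 0.593), a difference of −0.85 (95% interval −1.18 to −0.52, adjusted p = 0.00186). Sec23b read 5414, 5980, 5780 and 5297 in lsPERK tunicamycin livers and 1761, 1626 and 2203 in lsPERK DMSO livers, against 5592, 5674, 5960 and 5356 in WT tunicamycin livers and 1288, 2156 and 1452 in WT DMSO livers. It rose 3.04-fold in lsPERK and 3.54-fold in WT liver, and the difference of the log2 responses was −0.22 (95% interval −0.67 to 0.23, adjusted p = 0.515).

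The Sec24 proteins bind cargo in the inner coat, and only some of the 4 paralogues rose. Sec24d read 4711, 5087, 5000 and 4935 in lsPERK tunicamycin livers and 1869, 1831 and 2620 in lsPERK DMSO livers, against 6289, 6259, 6439 and 5383 in WT tunicamycin livers and 1567, 2494 and 2204 in WT DMSO livers. It rose 2.37-fold in lsPERK (limma adjusted p = 8.16e-05) and 2.97-fold in WT liver (adjusted p = 1.87e-06). Sec24b read 177, 224, 74 and 114 in lsPERK tunicamycin livers and 157, 193 and 184 in lsPERK DMSO livers, against 231, 244, 273 and 246 in WT tunicamycin livers and 169, 113 and 104 in WT DMSO livers. The lsPERK tunicamycin arrays of this gene spread widely and enclosed the lsPERK DMSO arrays. Sec24b stood at log2 −0.39 in lsPERK liver (adjusted p = 0.441) and rose by 0.98 in WT liver (adjusted p = 0.015), a rise that missed the threshold without WT DMSO replicate 2 or 3 (adjusted p = 0.0513 and 0.0656). The difference was −1.37 (SE 0.42, adjusted p = 0.0354), which moved to an adjusted p of 0.0502 without WT tunicamycin replicate 2 and to 0.0877 without WT DMSO replicate 3. It also failed without each of WT tunicamycin replicates 1, 3 and 4, WT DMSO replicate 2, lsPERK tunicamycin replicate 4 and lsPERK DMSO replicates 2 and 3. Its other kept probe set gave a difference of −0.27 (adjusted p = 0.558, over all kept probe sets). Sec24a stood at log2 0.27 in lsPERK and 0.26 in WT liver, and Sec24c at 0.35 and −0.10, none of which passed.

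Sec13 and Sec31a form the outer cage. Sec13, which also serves in the nuclear pore, rose by log2 0.82 in lsPERK liver (adjusted p = 0.0032) and 0.61 in WT liver (adjusted p = 0.00634). Sec31a stood at 0.19 in lsPERK liver (adjusted p = 0.299) and rose by 0.59 in WT liver (adjusted p = 0.000747), a difference of −0.40 (adjusted p = 0.104) that passed without lsPERK DMSO replicate 1 (−0.51, adjusted p = 0.0323). In all, 3 of the 8 coat subunits rose in lsPERK liver and 6 of 8 in WT liver, and 0 fell in either. The class median was log2 0.31 in lsPERK and 0.68 in WT liver.

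**Figure D2:**
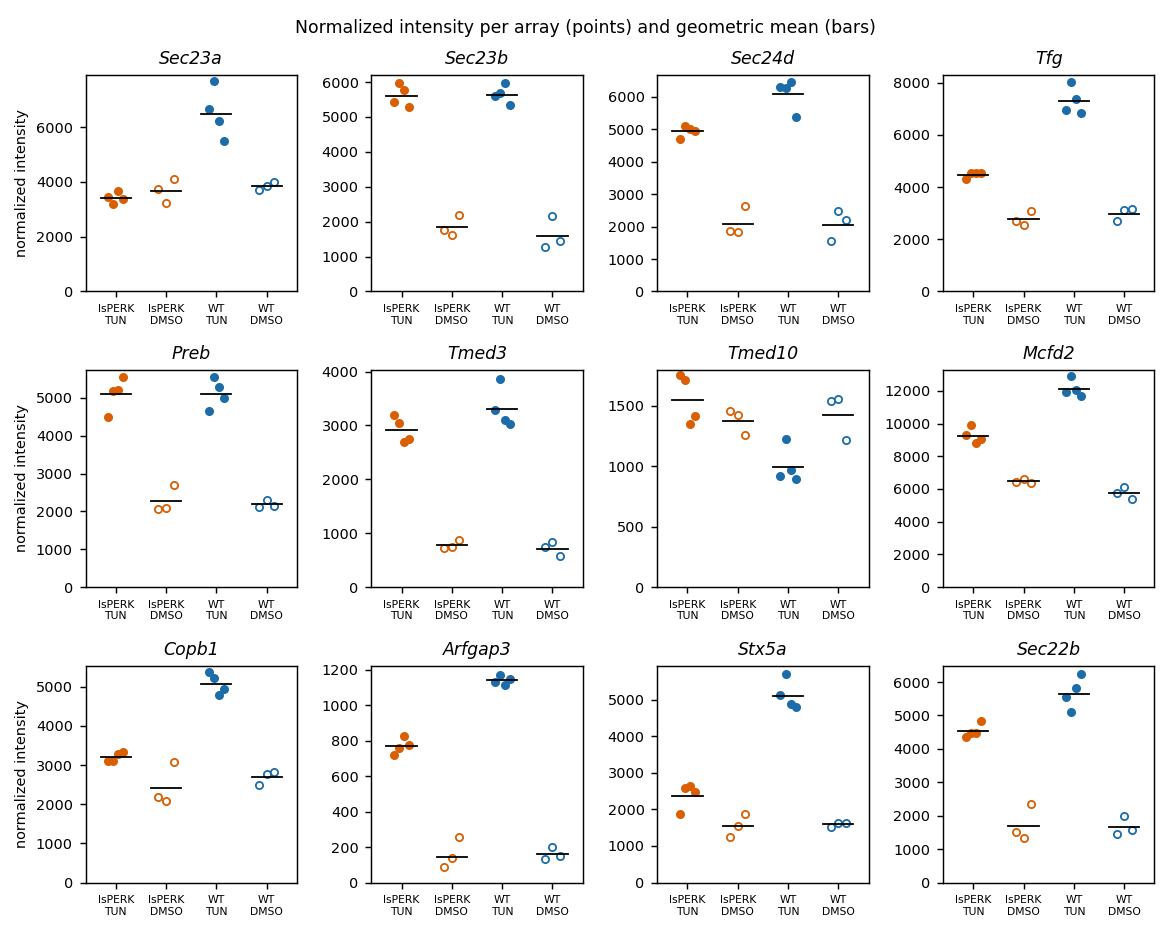
Normalized intensity of 12 members on each array (points, linear axis from 0) with the geometric mean of the group (bars), for lsPERK (orange) and WT (blue) livers with tunicamycin (filled) or DMSO (open). Sec23b, Preb and Tmed3 reach similar heights in the tunicamycin groups of both genotypes, whereas Sec23a, Tfg, Mcfd2, Copb1 and Stx5a stand higher in WT tunicamycin than in lsPERK tunicamycin livers without overlap. Sec24d, Arfgap3 and Sec22b also stand higher in WT tunicamycin livers without overlap, although their differences of responses were not called.

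Among the genes of COPII assembly, the difference of the responses was called for Tfg and, by its brightest probe set, not for Preb. Preb, the exchange factor that loads Sar1 with GTP, read 4482, 5186, 5205 and 5560 in lsPERK tunicamycin livers and 2056, 2093 and 2702 in lsPERK DMSO livers, against 4651, 5544, 5285 and 4990 in WT tunicamycin livers and 2125, 2298 and 2131 in WT DMSO livers. It rose 2.25-fold in lsPERK and 2.34-fold in WT liver, with a difference of log2 −0.06 (95% interval −0.38 to 0.27, adjusted p = 0.843). The other kept probe sets of Preb were split, in a limma fit of all kept probe sets. One gave a difference of 0.05 (adjusted p = 0.886), and the dimmest gave −0.97 (adjusted p = 0.0164). Tfg, an organiser of ER exit sites, read 4293, 4537, 4544 and 4551 in lsPERK tunicamycin livers and 2718, 2529 and 3077 in lsPERK DMSO livers, against 6965, 8040, 7363 and 6838 in WT tunicamycin livers and 2709, 3118 and 3159 in WT DMSO livers. The tunicamycin groups lay above their DMSO groups in both genotypes, and the lsPERK tunicamycin arrays lay below every WT tunicamycin array. Tfg rose 1.62-fold in lsPERK (limma adjusted p = 0.000102) and 2.44-fold in WT liver (adjusted p = 7.75e-08), a difference of log2 −0.59 (SE 0.12, adjusted p = 0.00445).

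Sar1a and Sar1b encode paralogues of Sar1, the GTPase that starts COPII assembly, and were not tested against each other. Sar1b read 13713, 13103, 13466 and 12895 in lsPERK tunicamycin livers and 12074, 11114 and 10835 in lsPERK DMSO livers, against 10448, 8428, 9462 and 9442 in WT tunicamycin livers and 10793, 10999 and 11328 in WT DMSO livers. Its shifts were small and opposite in sign: it rose by log2 0.23 in lsPERK liver (adjusted p = 0.0343) and fell in WT liver (log2 −0.23, adjusted p = 0.0133), and the difference was 0.46 (SE 0.10, adjusted p = 0.00479). In the values as deposited Sar1b stood at −0.07 in WT liver (adjusted p = 0.703), the WT call was also lost without WT DMSO replicate 3 (−0.21, adjusted p = 0.051), and the difference stood as deposited at 0.30 (adjusted p = 0.285). The small lsPERK rise lost its call without any of 6 lsPERK arrays, all but DMSO replicate 1, with an adjusted p up to 0.113. Sar1a stood at log2 0.33 in lsPERK (adjusted p = 0.0624) and rose by 0.55 in WT liver. Of the exit-site scaffolds, Sec16a rose by 0.52 in lsPERK (adjusted p = 0.0382) and 1.04 in WT liver, and the lsPERK call was lost without any of 7 arrays, most of all lsPERK DMSO replicate 1 (0.30, adjusted p = 0.159). Sec16b stood at −0.05 in lsPERK liver and was called lower in WT liver (log2 −0.47, adjusted p = 0.00347), a direction that turned in the values as deposited (0.05, adjusted p = 0.894).

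The p24 proteins are cargo receptors that cycle between ER and Golgi, and those measured here moved unevenly. Tmed3 read 3200, 3037, 2695 and 2757 in lsPERK tunicamycin livers and 723, 752 and 880.2 in lsPERK DMSO livers, against 3288, 3863, 3095 and 3020 in WT tunicamycin livers and 752, 843 and 572 in WT DMSO livers. It rose 3.73-fold in lsPERK and 4.63-fold in WT liver, with overlapping tunicamycin arrays of the genotypes and a difference of log2 −0.31 (95% interval −0.72 to 0.10, adjusted p = 0.289). Tmed9 read 4051, 4191, 4386 and 4480 in lsPERK tunicamycin livers and 1677, 1403 and 1954 in lsPERK DMSO livers, against 5022, 5832, 4883 and 5130 in WT tunicamycin livers and 1385, 1959 and 1562 in WT DMSO livers. Both tunicamycin groups lay above every DMSO array, and the WT one above the lsPERK one. It rose 2.57-fold in lsPERK and 3.22-fold in WT liver. Tmed10 read 1755, 1718, 1354 and 1413 in lsPERK tunicamycin livers and 1457, 1429 and 1260 in lsPERK DMSO livers, against 916, 1226, 970.3 and 897 in WT tunicamycin livers and 1544, 1555 and 1214 in WT DMSO livers. Here the WT tunicamycin arrays were the low ones, and only 1 of them (replicate 2) exceeded the lowest WT DMSO array. Tmed10 stood at log2 0.17 in lsPERK liver (adjusted p = 0.48) and was called lower in WT liver (−0.52, adjusted p = 0.00699), with a difference of 0.69 (SE 0.20, adjusted p = 0.0248). As deposited, the WT value turned to 0.02 (adjusted p = 0.965) and the difference stood at 0.17 (adjusted p = 0.797). The difference also lost its call with an adjusted p of 0.0503 to 0.0595 when any of 5 arrays was left out: WT DMSO replicates 1 and 2, lsPERK tunicamycin replicates 1 and 2, and lsPERK DMSO replicate 3. Tmed7 rose by log2 0.41 in lsPERK and 0.51 in WT liver, Tmed5 stood at 0.34 (adjusted p = 0.104) and rose by 0.63, and Tmed4 stood at 0.30 and −0.04, neither of which passed. Other kept probe sets of Tmed5 did pass in lsPERK liver, at 0.49 and 0.79 (limma adjusted p = 0.0227 and 0.02, over all kept probe sets). A dim one stood at −0.51 (adjusted p = 0.101). The lack of an lsPERK call for Tmed5 thus depended on the probe set. In all, 3 of 6 measured p24 genes rose in lsPERK liver and 0 fell, and 4 rose and 1 fell in WT liver.

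The other 4 cargo receptors rose in both genotypes. Lman1 and Mcfd2 encode the lectin and its partner that carry coagulation factors V and VIII out of the ER, Lman2 another lectin, and Surf4 a receptor for soluble secretory proteins. Mcfd2 read 9285, 9935, 8780 and 9047 in lsPERK tunicamycin livers and 6450, 6581 and 6360 in lsPERK DMSO livers, against 11959, 12895, 12037 and 11696 in WT tunicamycin livers and 5757, 6115 and 5374 in WT DMSO livers. No tunicamycin array overlapped a DMSO array, and the tunicamycin groups of the genotypes did not overlap either. The rise was 1.43-fold in lsPERK (limma adjusted p = 9.42e-05) and 2.11-fold in WT liver (adjusted p = 2.2e-08), a difference of log2 −0.56 (SE 0.09, adjusted p = 0.000908). Its partner Lman1 rose by log2 0.56 in lsPERK and 0.66 in WT liver, a difference of −0.10 (95% interval −0.38 to 0.19, adjusted p = 0.673). Surf4 read 4374, 3691, 3783 and 4057 in lsPERK tunicamycin livers and 2802, 2421 and 2275 in lsPERK DMSO livers, against 5780, 5106, 4339 and 3984 in WT tunicamycin livers and 2057, 2853 and 2062 in WT DMSO livers. It rose by log2 0.67 in lsPERK and 1.05 in WT liver, and Lman2 by 0.64 and 0.45.

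All 6 measured members of the COPI coat rose in both genotypes, by modest amounts. Their log2 changes ran from 0.35 to 0.72 in lsPERK liver (median 0.57) and from 0.28 to 0.95 in WT liver (median 0.54). Arcn1, the δ subunit, read 4729, 4564, 4076 and 4319 in lsPERK tunicamycin livers and 2458, 2622 and 2960 in lsPERK DMSO livers, against 4703, 5518, 4740 and 4547 in WT tunicamycin livers and 2343, 2846 and 2385 in WT DMSO livers. Both tunicamycin groups stood clear of their DMSO groups. Copb1, the β subunit, read 3103, 3106, 3286 and 3342 in lsPERK tunicamycin livers and 2178, 2095 and 3086 in lsPERK DMSO livers, against 5378, 5214, 4799 and 4945 in WT tunicamycin livers and 2492, 2774 and 2817 in WT DMSO livers. One lsPERK DMSO array, replicate 3, lay just under the lsPERK tunicamycin range. Copb1 rose by log2 0.41 in lsPERK (adjusted p = 0.0263) and 0.92 in WT liver (adjusted p = 1.91e-05), a difference of −0.51 (SE 0.16, adjusted p = 0.0414). That difference stood near the threshold. It passed without WT tunicamycin replicate 3 or lsPERK DMSO replicate 1 or 2, and lost its call without any of the other 11 arrays, with an adjusted p up to 0.0957, and was −0.33 without lsPERK DMSO replicate 3. The lsPERK rise of Copb1 was likewise lost without lsPERK tunicamycin replicate 3 or 4 or DMSO replicate 1 or 2 (0.31 to 0.40, adjusted p up to 0.138). Copb2, the β′ subunit, rose by log2 0.57 in lsPERK and 0.42 in WT liver, a difference of 0.16 (95% interval −0.09 to 0.40). Copa (α) rose by 0.56 and 0.53, Cope (ε) by 0.63 and 0.55, and Copz1 (ζ) by 0.35 and 0.28, in lsPERK and WT liver in that order, although the mean of both Copz1 probe sets turned the lsPERK value to −0.22 (adjusted p = 0.646).

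The largest change of any member was that of Arfgap3, a GTPase-activating protein for Arf1 on COPI membranes. Arfgap3 read 718, 759, 829 and 776 in lsPERK tunicamycin livers and 85.5, 137 and 256 in lsPERK DMSO livers, against 1132, 1169, 1112 and 1147 in WT tunicamycin livers and 133, 199 and 152 in WT DMSO livers. It rose 5.34-fold in lsPERK (limma adjusted p = 3.22e-05) and 7.18-fold in WT liver (adjusted p = 1.4e-06), with a difference of log2 −0.43 (95% interval −1.23 to 0.37). Arf4, a relative of Arf1, read 8780, 8741, 9339 and 9114 in lsPERK tunicamycin livers and 6040, 5459 and 5763 in lsPERK DMSO livers, against 10843, 12298, 10241 and 10500 in WT tunicamycin livers and 4671, 5946 and 4682 in WT DMSO livers. It rose by log2 0.65 in lsPERK and 1.11 in WT liver, a difference of −0.47 (SE 0.13, adjusted p = 0.0195). Without WT DMSO replicate 1 or 3 the difference stood at −0.41 and −0.40 (adjusted p = 0.0508 and 0.0555). Other kept probe sets of Arf4 gave differences of −0.45 and −0.18, which did not pass (limma adjusted p = 0.0691 and 0.723, over all kept probe sets). Arf1 itself stood at 0.10 in lsPERK (adjusted p = 0.486) and rose by 0.25 in WT liver (adjusted p = 0.0229), a call lost without WT DMSO replicate 1 (0.19, adjusted p = 0.11). Gbf1, the exchange factor that activates Arf1 at the early Golgi, read 730.4, 689, 822 and 718 in lsPERK tunicamycin livers and 566, 503 and 656 in lsPERK DMSO livers, against 857, 918, 831 and 769.7 in WT tunicamycin livers and 556, 552 and 548 in WT DMSO livers. It rose by 0.37 in lsPERK (adjusted p = 0.035) and 0.61 in WT liver, and the lsPERK call was lost without any of 5 lsPERK arrays (tunicamycin replicates 1, 3 and 4, DMSO replicates 1 and 2), with an adjusted p up to 0.166.

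By their brightest probe sets, all 6 SNARE genes rose in both genotypes, with a class median of log2 0.75 in lsPERK and 1.25 in WT liver. SNAREs on vesicle and target membranes pair to fuse them, and syntaxin 5, encoded by Stx5a, is the Golgi partner of Bet1, Bet1l, Sec22b, Ykt6 and Gosr2. Stx5a read 1875, 2598, 2653 and 2478 in lsPERK tunicamycin livers and 1256, 1538 and 1880 in lsPERK DMSO livers, against 5127, 5714, 4873 and 4799 in WT tunicamycin livers and 1532, 1631 and 1635 in WT DMSO livers. Every WT tunicamycin array lay above the highest lsPERK tunicamycin array, and the lowest lsPERK tunicamycin array lay just under the highest lsPERK DMSO array. Stx5a rose 1.55-fold in lsPERK (limma adjusted p = 0.00755) and 3.2-fold in WT liver (adjusted p = 5.83e-07), a difference of log2 −1.05 (SE 0.20, adjusted p = 0.00264). Its other kept probe set gave a difference of −1.61 (adjusted p = 0.000733, over all kept probe sets). Sec22b read 4345, 4462, 4489 and 4823 in lsPERK tunicamycin livers and 1525, 1331 and 2349 in lsPERK DMSO livers, against 5540, 5090, 5808 and 6246 in WT tunicamycin livers and 1453, 1994 and 1558 in WT DMSO livers. It rose 2.69-fold in lsPERK and 3.42-fold in WT liver. Bet1l read 844, 837, 785 and 747 in lsPERK tunicamycin livers and 392, 422 and 503 in lsPERK DMSO livers, against 955, 969, 1143 and 1221 in WT tunicamycin livers and 366, 501 and 411 in WT DMSO livers. Its rise was log2 0.88 in lsPERK and 1.33 in WT liver, a difference of −0.46 (adjusted p = 0.114). Bet1 rose by 1.37 in lsPERK and 1.16 in WT liver, Gosr2 by 0.62 and 0.97, and Ykt6, a lipid-anchored SNARE, by 0.34 and 0.32. In a limma fit of all kept probe sets, the other Bet1 probe set rose by 0.83 in lsPERK liver (adjusted p = 0.0114). It stood at 0.25 in WT liver (adjusted p = 0.329), which did not pass. The other Ykt6 probe set passed in neither genotype (adjusted p = 0.486 in lsPERK and 0.476 in WT liver). The lsPERK call of Ykt6 was lost without lsPERK tunicamycin replicate 3 or 4 or DMSO replicate 1 (0.28 to 0.32, adjusted p up to 0.0715).

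Both tethers, long coiled-coil proteins that capture vesicles before fusion, rose in both genotypes. Uso1 (p115) read 5391, 5739, 5109 and 5400 in lsPERK tunicamycin livers and 2349, 2384 and 2566 in lsPERK DMSO livers, against 6722, 7119, 6372 and 5998 in WT tunicamycin livers and 2123, 2869 and 2112 in WT DMSO livers. It rose 2.22-fold in lsPERK (limma adjusted p = 6.85e-06) and 2.79-fold in WT liver (adjusted p = 1.17e-07). The difference of its log2 responses was −0.33 (95% interval −0.64 to −0.01, adjusted p = 0.141), and it passed without WT DMSO replicate 2 (−0.47, adjusted p = 0.0133). Golgb1 (giantin) rose by log2 0.75 in lsPERK (adjusted p = 0.019) and 0.92 in WT liver (adjusted p = 0.00148), and the lsPERK call was lost without lsPERK DMSO replicate 1 (0.48, adjusted p = 0.0724).

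KDEL receptors bind the C-terminal retrieval signal of ER chaperones in the Golgi and return them in COPI vesicles. Kdelr1 read 4061, 4247, 4014 and 4303 in lsPERK tunicamycin livers and 2929, 3662 and 3718 in lsPERK DMSO livers, against 3457, 3936, 3656 and 3886 in WT tunicamycin livers and 3806, 3425 and 3623 in WT DMSO livers. It rose by log2 0.28 in lsPERK liver (adjusted p = 0.0462) and stood at 0.04 in WT liver (adjusted p = 0.712). The lsPERK call was lost without any of 11 of the 14 arrays, with 0.17 (adjusted p = 0.187) without lsPERK DMSO replicate 1. The brightest probe set of Kdelr2 read 6213, 5734, 5714 and 7565 in lsPERK tunicamycin livers and 2231, 3939 and 5149 in lsPERK DMSO livers, against 7443, 4740, 7055 and 1956 in WT tunicamycin livers and 2972, 3643 and 4167 in WT DMSO livers. WT tunicamycin replicate 4 was the lowest of all 14 values, and the responses of log2 0.81 in lsPERK (adjusted p = 0.18) and 0.40 in WT liver (adjusted p = 0.419) did not pass. Without that array they stood at 0.82 in both genotypes (adjusted p = 0.041 in lsPERK and 0.0219 in WT liver). The other kept probe set of Kdelr2 read 2138, 2158, 2033 and 2239 in lsPERK tunicamycin livers and 875, 917 and 1218 in lsPERK DMSO livers, against 2638, 1942, 3093 and 1880 in WT tunicamycin livers and 722, 921 and 1054 in WT DMSO livers. There the tunicamycin and DMSO groups did not overlap, and the changes of 1.11 in lsPERK (adjusted p = 0.000938) and 1.40 in WT liver (adjusted p = 2.64e-05) passed in a fit of all kept probe sets.

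Kdelr3 read 17.1, 11, 9.65 and 17.6 in lsPERK tunicamycin livers and 13.6, 3.29 and 4.41 in lsPERK DMSO livers, against 59.5, 79.6, 75.7 and 60.6 in WT tunicamycin livers and 28, 18 and 17 in WT DMSO livers. Only the WT tunicamycin arrays exceeded the threshold of 41.5. With the low arrays raised to that threshold, WT tunicamycin livers stood at least 1.65-fold higher than WT DMSO livers and at least 1.65-fold above lsPERK tunicamycin livers. These are descriptions with no test, since the gene passed the filter through the WT tunicamycin arrays. Both lsPERK groups were under the threshold, so no fold is given between them and no difference of responses is read for this gene.

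**Figure D3:**
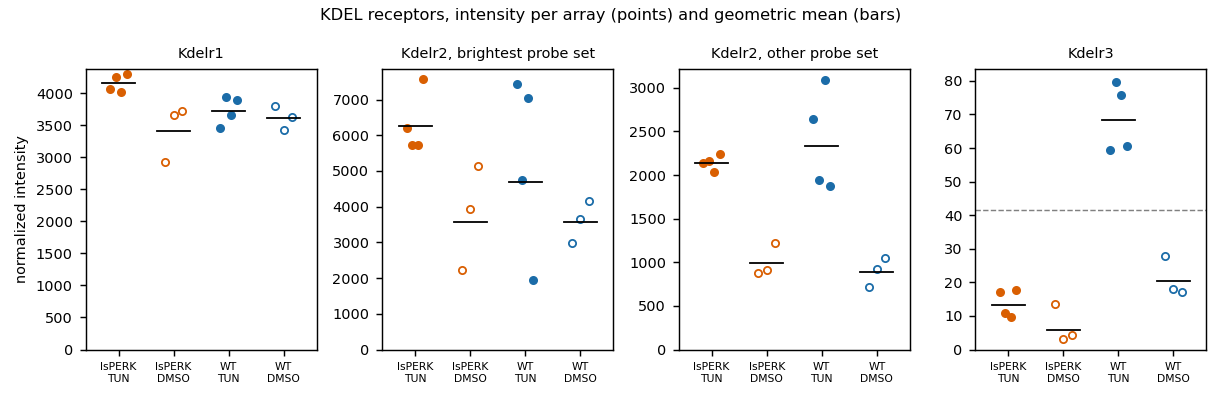
Normalized intensity of the KDEL receptors on each array (points, linear axes from 0) with group geometric means (bars), lsPERK in orange and WT in blue, filled for tunicamycin and open for DMSO; both kept probe sets of Kdelr2 are drawn. The brightest Kdelr2 probe set has 1 low WT tunicamycin array at 1956, the other does not, and Kdelr3 exceeds the filter threshold (dashed, 41.5) in WT tunicamycin livers alone.

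The size of the differences between the responses ran from log2 −1.37 (Sec24b) to 0.69 (Tmed10). The median was −0.22 over the 45 members and −0.22 over the 44 without Kdelr3, beside 0.08 over all genes. In 29 members the WT response was the larger estimate and in 16 the lsPERK response was. Kdelr3, for which no difference is read, is counted among the 29. By class the median difference was −0.35 for the SNAREs, −0.33 for the Arf switch genes, −0.27 for the COPII coat, −0.25 for the tethers, −0.24 for the other cargo receptors, −0.19 for the p24 genes, −0.14 for COPII assembly and 0.05 for the COPI coat. Among the KDEL receptors the difference was 0.24 for Kdelr1 and 0.41 for Kdelr2, and none is read for Kdelr3. Of the 30 members that rose in both genotypes, 5 (Tfg, Mcfd2, Copb1, Arf4 and Stx5a) differed between them by the test and 25 did not pass it, which does not show that those 25 responded alike. Of the 9 called differences, those of Sec23a and Stx5a kept their call and direction under all 10 alternative settings and with each array left out in turn. All 9 rest on 14 arrays. As deposited, 0 members were called higher and 11 lower, against 2 and 7 after quantile normalization, and with median centring it was 1 and 3.

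**Figure D4:**
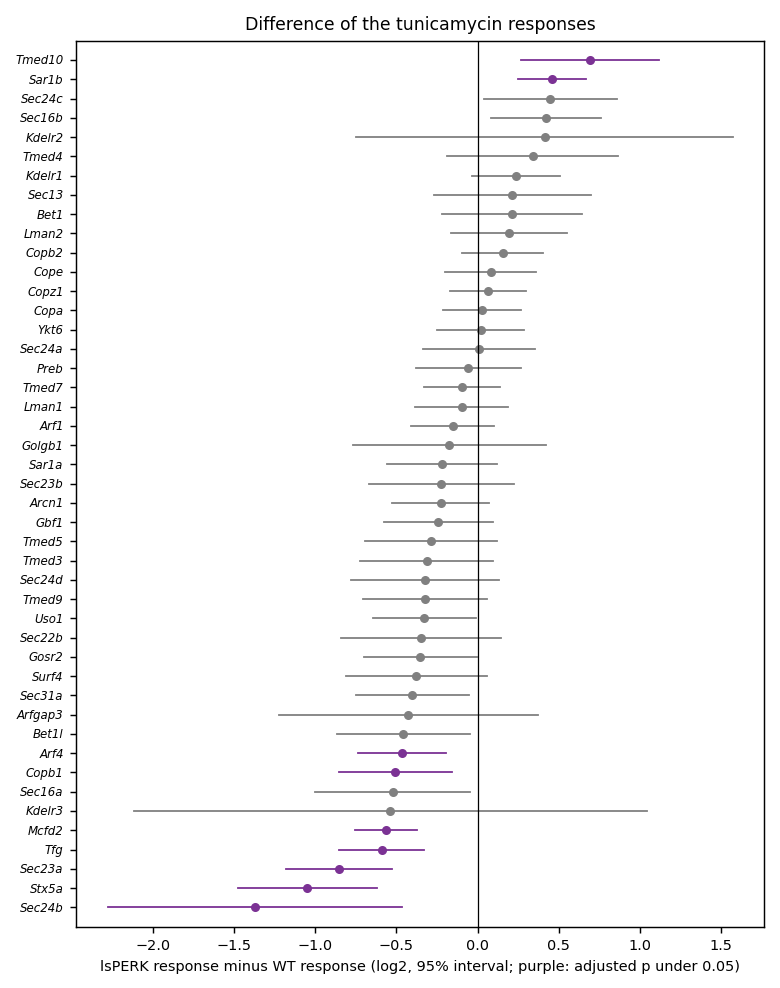
Difference of the tunicamycin responses (lsPERK minus WT, log2 of normalized intensity) for the 45 tested members, in order of size with 95% intervals; purple marks an adjusted p under 0.05. Tmed10 and Sar1b are called right of 0, and Arf4, Copb1, Mcfd2, Tfg, Sec23a, Stx5a and Sec24b left of it, while Kdelr2 and Kdelr3 have the widest intervals around 0. Kdelr3 is drawn but not read, since both of its lsPERK groups lay under the filter threshold.

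Between the tunicamycin groups themselves, which share their arrays with both responses, 13 members were lower in lsPERK than in WT liver and 4 were higher. Over all genes 16.8% were lower and 18.5% higher in that comparison, 35.3% in all. Values as deposited gave 10 lower and 1 higher. Among those lower, Stx5a stood at log2 −1.10 (adjusted p = 2.23e-05), Sec23a at −0.92, Tfg at −0.70, Copb1 at −0.66, Bet1l at −0.41, Sec16a at −0.41 and Sec31a at −0.37. Those higher were Tmed10 (0.64), Sec16b (0.55), Sar1b (0.50) and Sec24c (0.41). Without Kdelr3 the counts were 12 lower and 4 higher. With each array left out in turn, 11 of the 17 calls held throughout and 6 were lost at least once (Sec24b, Sec24c, Sec16a, Tmed5, Bet1l and Uso1). That of Bet1l was lost without WT replicate 3 or 4 or lsPERK replicate 4 (adjusted p up to 0.0626), and that of Sec24c without WT replicate 3 or 4 or lsPERK replicate 2 or 3 (up to 0.0617). Sec16a lost its call without any of 7 of the 8 tunicamycin arrays, all but WT replicate 3 (up to 0.0962). Sec24b lost it without WT replicate 3 or lsPERK replicate 3 or 4 (up to 0.0662), and Tmed5 without WT replicate 1 or 2 or lsPERK replicate 2 or 4 (up to 0.0984). Uso1 lost it without any of 6 of the 8, all but WT replicate 4 and lsPERK replicate 2 (up to 0.0948). In a limma fit of all kept probe sets, calls differed among the probe sets of 9 of the 28 members with several. The other probe sets of Bet1l (adjusted p = 0.0566 to 0.495), Sec16a (0.264) and Sec24c (0.607) did not pass. Without tunicamycin, limma called 0 of 45 members, and 0% of all genes, between lsPERK and WT liver. The members' log2 differences there had a median of 0.03, with or without Kdelr3. An unadjusted limma p under 0.05 was found for 2 members (Mcfd2 and Kdelr3), and for 4.24% of all genes. Kdelr3 lay under the filter threshold on every DMSO array, so its p is no result of a test. Every one of the 24 alternative fits also called 0 members between the DMSO groups.

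A further list held 69 other genes of the same route, chosen by role. Of the 65 that were tested, 21 rose and 1 fell in lsPERK liver, and 23 rose and 16 fell in WT liver, with median log2 changes of 0.20 and 0.10. In lsPERK liver these were 32.3% higher and 1.54% lower, beside 8.42% and 7.27% over all genes. In WT liver they were 35.4% higher and 24.6% lower, beside 20.7% and 26% over all genes, so the share of falls was near the background. Yipf5, a membrane protein of the early Golgi, rose by log2 1.09 in lsPERK (adjusted p = 2.13e-05) and 1.44 in WT liver (adjusted p = 3.36e-07). Nbas, a subunit of the ER tether for COPI vesicles, rose by 1.05 and 1.14, in lsPERK and WT liver in that order. The COPI coat subunit Copg1 rose by 1.14 and 0.95, and Scfd1, which binds syntaxin 5, by 1.00 and 1.00. Gorasp2, a Golgi stacking protein, rose by 0.69 in lsPERK and 1.29 in WT liver, a difference of −0.60 (adjusted p = 0.0269). Among the 16 that fell in WT liver were Trappc1, Ergic3 and Arf3. Trappc1, a subunit of the TRAPP tether, averaged 1984 (1899 to 2079 on 4 arrays) in lsPERK tunicamycin and 1639 (1367 to 1886 on 3) in lsPERK DMSO livers, against 836 (709 to 937 on 4) in WT tunicamycin and 1806 (1661 to 1997 on 3) in WT DMSO livers. The WT tunicamycin arrays lay below all the others. Its difference of the responses was log2 1.39 (SE 0.17, adjusted p = 0.000164). Ergic3, of the ER-Golgi intermediate compartment, differed by 0.76 (adjusted p = 0.00403) and Arf3 by 0.75 (adjusted p = 0.0111). In all, 8 of the 65 (12.3%) had a higher and 2 (3.08%) a lower response in lsPERK liver, beside 10.2% and 9.67% over all genes.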

How the data were processed

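Liver RNA of 14 samples in 4 groups was measured on 1-colour Affymetrix oligonucleotide arrays. The deposited intensity values had been summarised per probe set with MAS5 in GCOS, per the submitters' processing notes, and the genome build is not given in the sources used here. Control probe sets were left out and log2 intensities were quantile normalized. Probe sets were kept where at least 3 arrays lay above the pooled median of the values, and probe sets with 1 platform gene symbol were used, the brightest for each gene. MAS5 values of dim probe sets are noisy, so low intensities carry wide errors.

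A linear model with 4 group means was fitted to 12085 genes with limma 3.58.1 (R 4.3.3; trend in eBayes), with Benjamini-Hochberg adjustment over all genes and a threshold of 0.05. The 5 contrasts were tunicamycin minus DMSO in lsPERK and in WT liver, lsPERK minus WT with DMSO and with tunicamycin, and the difference of the responses. Fits were tested on simulated data. No counts underlie these values, so precision is limited by the number of arrays. RefSeq windows were searched with Python 3.11.15, and figures were drawn with matplotlib 3.10.9.

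Members and lists were chosen with earlier results of these data known. Values on every array were given for up to 14 members, the 2 of each class with the smallest p in the difference of responses or, where none was called, in the WT response. The array values of Sec23b, Sec24d, Preb, Tmed3, Arfgap3, Sec22b, Uso1 and the KDEL receptors were added after their values were seen. Of other traffic genes, up to 4 per contrast were named in order of p. Alternatives covered scaling, the filter, a floor, the eBayes trend, the probe set rule, covariates, a replicate block and leaving out each array.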

Additional observations from a re-analysis of the deposited data

Results flagged for a closer look

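In 2 of the 90 groups of 4 arrays examined, 1 array stood apart from the other 3, and chance alone gives about 1 in 20. Sec24d read 5383 on WT tunicamycin replicate 4, against 6259 to 6439 on the others (gap over range 0.842). Tfg read 4293 on lsPERK tunicamycin replicate 1, against 4537 to 4551 on the others (gap over range 0.947).

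The tunicamycin responses of 9 of the 45 members (20%) differed between the genotypes by the test of the difference itself (limma, lsPERK minus WT, log2). Over all genes 19.9% were called by that test. The difference was −0.85 for Sec23a (adjusted p = 0.00186), −1.37 for Sec24b (adjusted p = 0.0354) and −0.59 for Tfg (adjusted p = 0.00445). It was −0.56 for Mcfd2 (adjusted p = 0.000908), −0.51 for Copb1 (adjusted p = 0.0414), −0.47 for Arf4 (adjusted p = 0.0195) and −1.05 for Stx5a (adjusted p = 0.00264). It was 0.46 for Sar1b (adjusted p = 0.00479) and 0.69 for Tmed10 (adjusted p = 0.0248).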

How the results depend on the processing

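With the values as deposited, the lsPERK response was called for 21 members against 32, and the comparison of the tunicamycin groups for 11 against 17. With median centring the difference of the responses was called for 4 against 9. As deposited, the WT responses of Sec16b and Tmed10 turned to 0.047 and 0.019. With the mean of a gene's kept probe sets, Copz1 turned to −0.22 in the lsPERK response, −1.10 between the tunicamycin groups and −1.74 in the difference. That mean takes in a dim Copz1 probe set, which averaged under the filter threshold in both lsPERK groups. With an array left out in turn, the calls ran from 26 to 33 in the lsPERK response, 38 to 42 in the WT response (40 with all arrays), 12 to 20 between the tunicamycin groups, 0 to 0 between the DMSO groups and 6 to 11 in the difference, the lowest without WT DMSO replicate 1 or 3. The causes were not tested. In the difference, Tfg also lost its call with median centring and with the mean of kept probe sets, and Mcfd2 with median centring. Under the 10 other alternatives, 20 of 32 members kept their lsPERK call, 34 of 40 their WT call, 8 of 17 their call between the tunicamycin groups and 2 of 9 that in the difference.

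The groups share replicate numbers, which the labels do not explain. Deviations from the group means correlated at −0.37 to 0.42 over same-numbered pairs (median 0.24, above 0.1 in 13 of 19) and at −0.49 to 0.54 over differently numbered pairs (median −0.17, above 0.1 in 23 of 54). Pairing was accepted only where every same-numbered pair lay above 0.1, so the numbers were not used as pairs. With the replicate number as a block the calls were 32 in the lsPERK response, 41 in the WT response, 17 between the tunicamycin groups, 0 between the DMSO groups and 8 in the difference, where Copb1 lost its call (adjusted p = 0.0555). Kdelr1 lost its lsPERK call (adjusted p = 0.0934), and Sec24a gained calls in both responses (0.34 in lsPERK and 0.33 in WT liver).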

Other observations

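Further probe sets of some members gave larger responses than the brightest one, which sets no level of one probe set against another. A dimmer Preb probe set averaged 219 in lsPERK tunicamycin and 76.1 in lsPERK DMSO livers, against 391 in WT tunicamycin and 69.3 in WT DMSO livers. Its log2 response was 1.52 in lsPERK and 2.50 in WT liver, beside 1.17 and 1.23 for the brightest. The difference of these responses passed (−0.97, limma adjusted p = 0.0164, over all kept probe sets), unlike that of the brightest. Between the tunicamycin groups this probe set was lower in lsPERK liver (−0.84, adjusted p = 0.00131). A dimmer Gbf1 probe set averaged 564 in lsPERK tunicamycin and 171 in lsPERK DMSO livers, against 655 in WT tunicamycin and 179 in WT DMSO livers. Its log2 response was 1.72 in lsPERK and 1.87 in WT liver, beside 0.37 and 0.61. The dim Copz1 probe set averaged 11.4 in lsPERK tunicamycin and 19.9 in lsPERK DMSO livers, against 53.4 in WT tunicamycin and 7.91 in WT DMSO livers, so that WT tunicamycin livers alone averaged above the filter threshold of 41.5.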
